A study of Mus musculus with 16 samples.

Results

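The 39 genes with a symbol of the form Hoxa, Hoxb, Hoxc or Hoxd followed by a number were followed through RNA sequencing of mouse melanoma tumours. They were taken by symbol alone, without antisense names, from 46078 genes in the count table, and comprise 11 HoxA genes on chromosome 6, 10 HoxB genes on chromosome 11, 9 HoxC genes on chromosome 15 and 9 HoxD genes on chromosome 2. Of these, 28 had enough counts to be tested among 16101 tested genes, and the other 11 fell below the filter on low counts.

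The tumours grew from B16F10-GP cells, a derivative of the pigmented B16F10 melanoma line of C57BL/6 mice, implanted in 25% Matrigel at the flanks of female C57BL/6 mice aged 6 to 8 weeks. Each of 4 groups had 4 libraries. In the combined group tumours were irradiated once with 5 Gy on day 10, and the mice were given QH-II-066, named only by that code in the labels, intraperitoneally at 10 mg/kg daily for 7 days. Radiation was given to the right flank only. The 5 Gy group had the radiation alone, the QH-II-066 group had the drug alone from day 10, and the control group is labelled untreated, while the protocol speaks of vehicle. All groups share the cell line, the strain and the sex of the host. The labels give neither the flank of each tumour nor the mouse behind each library, so p-values measure the spread between these libraries.

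Hox genes encode transcription factors with a DNA-binding homeodomain and assign position along the head-to-tail axis of the embryo. They lie in 4 clusters, and genes with the same number in different clusters, called paralogues, descend from 1 ancestral gene. Low numbers pattern the head end and neck, middle numbers the trunk, and high numbers the lumbar to tail region, the limbs and the genital tract. Adult skin fibroblasts are known in humans to keep a Hox pattern that records their body site, while melanocytes arise from the neural crest.

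The homeobox is the stretch of 180 bases that encodes the homeodomain, and it was located in 1 reference transcript of each of the 39 genes (GENCODE M21, GRCm38). The sequences below belong to the genes on which the results turn: the 2 most abundant Hox genes, the gene found with hair keratins, the paralogues Hoxc8 and Hoxd8, the closest pair over libraries, and Hoxc9, the gene that passed a test between groups. They run 5′ to 3′ in the sense of the transcript, and the capitals mark the 18 bases for the conserved core of the recognition helix, by which the homeobox was located.
Hoxa10: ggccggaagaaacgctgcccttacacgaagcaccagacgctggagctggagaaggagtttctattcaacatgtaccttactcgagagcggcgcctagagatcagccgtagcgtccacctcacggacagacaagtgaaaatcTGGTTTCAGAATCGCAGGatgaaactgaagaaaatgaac
Hoxd13: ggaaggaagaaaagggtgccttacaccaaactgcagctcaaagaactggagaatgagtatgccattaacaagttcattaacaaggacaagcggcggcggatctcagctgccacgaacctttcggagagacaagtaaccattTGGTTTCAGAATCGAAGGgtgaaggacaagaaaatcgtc
Hoxc13: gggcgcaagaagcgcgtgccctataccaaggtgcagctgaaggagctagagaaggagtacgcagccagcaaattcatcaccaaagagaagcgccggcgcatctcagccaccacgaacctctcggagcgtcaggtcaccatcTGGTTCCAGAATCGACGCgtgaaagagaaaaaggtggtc
Hoxc8: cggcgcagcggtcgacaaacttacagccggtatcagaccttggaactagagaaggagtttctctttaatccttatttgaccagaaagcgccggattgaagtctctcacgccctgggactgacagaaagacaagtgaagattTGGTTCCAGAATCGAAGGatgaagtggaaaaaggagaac
Hoxd8: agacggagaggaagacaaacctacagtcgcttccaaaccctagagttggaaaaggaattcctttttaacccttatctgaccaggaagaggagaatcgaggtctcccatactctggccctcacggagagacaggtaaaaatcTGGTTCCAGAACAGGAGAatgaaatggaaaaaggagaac
Hoxc9: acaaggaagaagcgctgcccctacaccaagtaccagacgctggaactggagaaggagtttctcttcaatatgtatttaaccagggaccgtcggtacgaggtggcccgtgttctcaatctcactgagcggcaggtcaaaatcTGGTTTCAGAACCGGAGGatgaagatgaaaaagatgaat

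Base identity between homeoboxes was 73.3% for Hoxc8 and Hoxd8 and 75.0% for Hoxc13 and Hoxd13. Over all 42 pairs of the same number the median was 80.6%, and over the 699 other pairs it was 60.6%. Hoxa10, Hoxd13, Hoxc13, Hoxc8 and Hoxd8 shared no run of 50 bases with another Hox transcript, and Hoxc9 shared 1 with Hoxb9. Hoxd3 and Hoxd4 shared 339 such runs and Hoxc5 and Hoxc10 shared 119, so counts of these 4 genes are uncertain. Exons of other genes overlapped 35.0% of the exonic bases of Hoxa11 (the antisense gene Hoxa11os), 52.3% of Hoxd4, 62.8% of Hoxd3 and 52.9% of Hoxb3. They also overlapped 27.3% of Hoxb2 and 27.1% of Hoxa3, and in all 10 members had over 10% overlapped. Without strand in the counting those counts are uncertain too.

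The library totals lay between 6994198 and 40799942 counts, with the lowest in replicate 4 of the combined group. Hox genes took 45593 counts in all. Skin transcripts were present in 5 libraries, which were replicates 2, 3 and 4 of the combined group and replicates 2 and 4 of the 5 Gy group. Their skin epithelium score, the mean log2 counts scaled to the library total and TMM factor (CPM) of 14 tested skin genes, lay between 3.604 and 7.21, against -0.61 or lower in the other 11. The summed level of the 15 listed skin genes was 15.9 to 1813 CPM in the combined group, 4.05 to 3684 CPM in the 5 Gy group, 4.74 to 13.1 CPM in the QH-II-066 group and 4.15 to 6.11 CPM in untreated tumours. Summed skeletal muscle genes ranged over 19.9 to 1357 CPM, 15.5 to 2871 CPM, 14.8 to 1340 CPM and 11.1 to 140 CPM in the same order of groups. All 15 fibroblast and matrix genes and all 11 melanocyte pigmentation genes had counts in every library.

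Hox expression was dominated by a few posterior genes that were present in every library. Hoxa10, known for patterning the lumbar spine and the uterus, took 32.0% of all Hox counts. Hoxd13, a gene of digits and the genital tubercle, took 13.2%, and Hoxa11, a gene of the forearm and the uterus, took 8.92%. Per kilobase of exon, the mean level was 9.62 CPM for Hoxa10, 5.16 CPM for Hoxd13 and 3.81 CPM for Hoxa11. By cluster, HoxA held 65.3% of Hox counts, HoxD 17.8%, HoxB 11.9% and HoxC 5.00%. At least 3 counts were present in every library for 19 of the 39 genes, 6 genes had only 1 to 19 counts in all, and Hoxd1 had none.

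Values per library are given in the order of replicates 1 to 4. Hoxa10 had 28.6, 37.6, 36.2 and 25.4 CPM in the combined group, 25.9, 23.1, 29.5 and 29.5 CPM in the 5 Gy group, 41.0, 33.9, 29.7 and 28.6 CPM in the QH-II-066 group, and 33.0, 31.9, 37.3 and 32.3 CPM in untreated tumours. The 5 Gy libraries lay below all 4 untreated ones, while the other groups overlapped with them. Hoxd13 had 12.6, 13.9, 14.9 and 8.18 CPM in the combined group, 11.8, 10.2, 14.1 and 12.3 CPM in the 5 Gy group, 12.6, 14.3, 11.6 and 12.1 CPM in the QH-II-066 group, and 12.3, 16.1, 15.6 and 12.5 CPM in untreated tumours. The lowest Hoxd13 value was that of the shallowest library, and all groups overlapped. Hoxa11 had 7.46, 11.7, 8.14 and 5.65 CPM in the combined group, 7.11, 3.95, 8.87 and 9.18 CPM in the 5 Gy group, 11.3, 10.8, 7.55 and 9.76 CPM in the QH-II-066 group, and 10.0, 8.03, 10.8 and 8.86 CPM in untreated tumours. Replicate 2 of the 5 Gy group was lowest for both Hoxa10 and Hoxa11. Over the 16 libraries the coefficient of variation was 15.5% for Hoxa10 and 15.7% for Hoxd13, against 81.0% for Hoxd8 and 102% for Hoxc8.

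**Figure D1:**
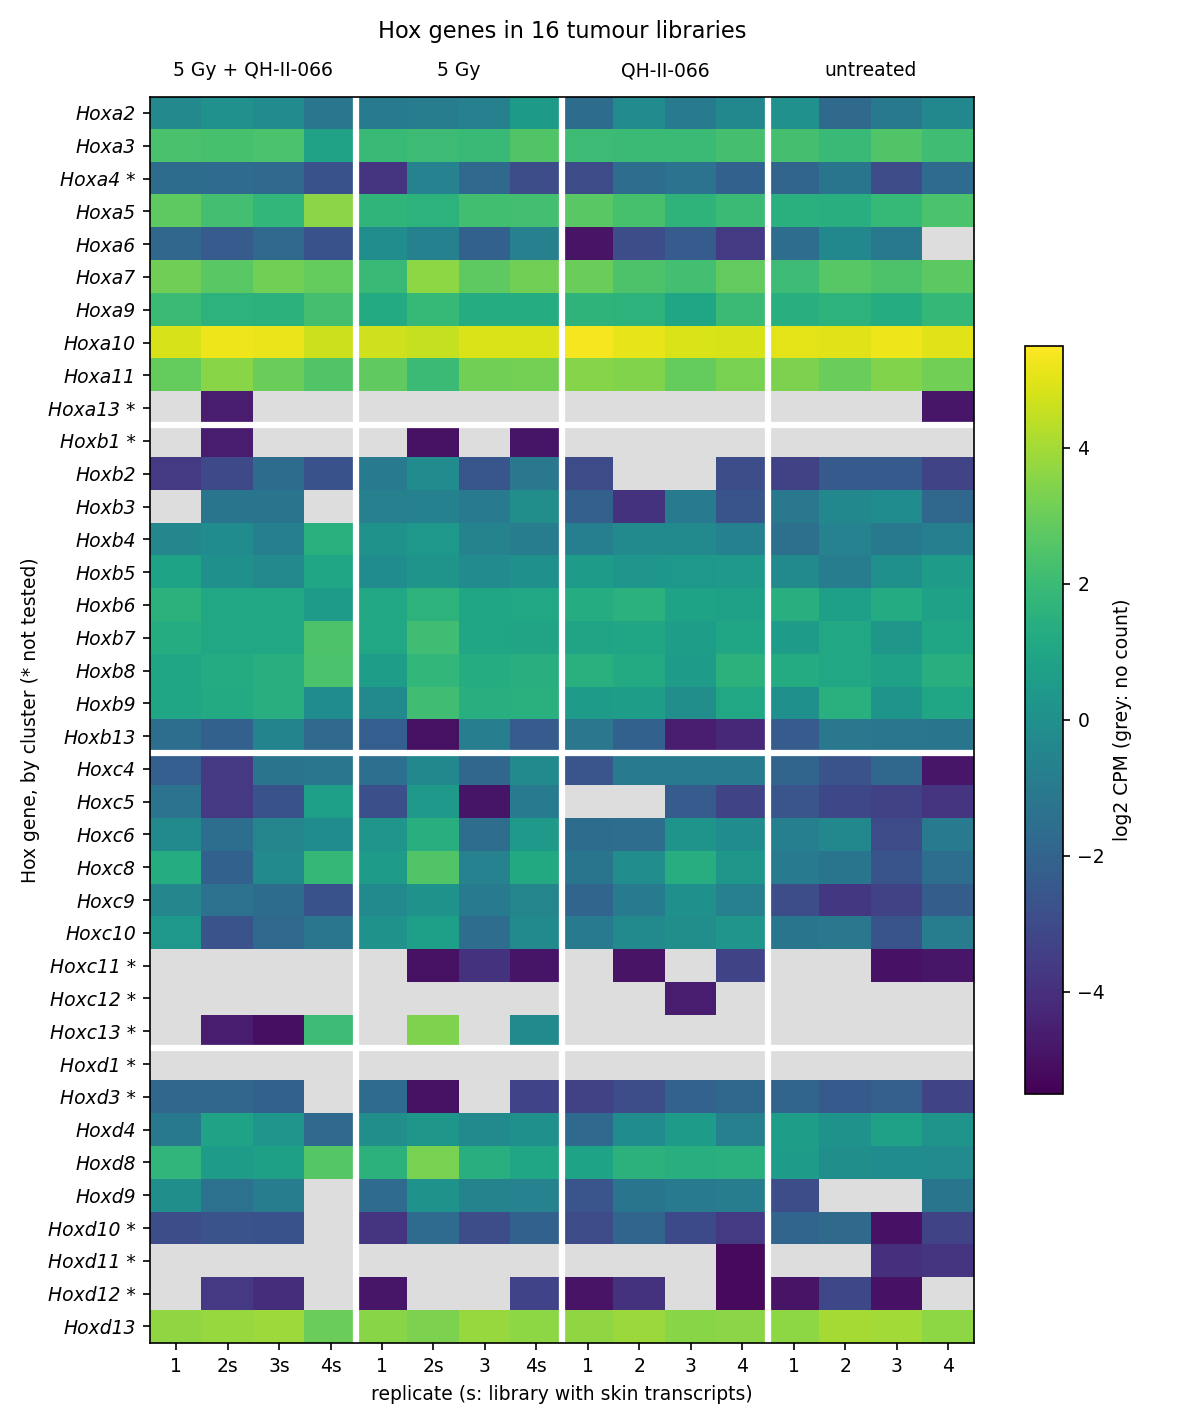
Colours show log2 CPM of Hox genes (rows, by cluster and number) in the 16 libraries (columns, by group and replicate), with grey for no count, an asterisk for genes not tested and s for the 5 libraries with skin transcripts. Hoxa10 was the most abundant Hox gene in each library, and Hoxc13 had more than 1 count in 3 libraries only, all with skin transcripts.

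Among the other HoxA and HoxB genes with the highest levels per kilobase, each treated group overlapped with untreated tumours. For Hoxb7 the combined group lay above the QH-II-066 group, with 2.06 CPM the lowest and 1.94 CPM the highest value. Hoxa5, a gene of the lung and the neck-to-trunk transition, had 6.78, 4.70, 3.40 and 12.05 CPM in the combined group, 3.27, 3.07, 4.49 and 4.57 CPM in the 5 Gy group, 6.42, 4.87, 3.19 and 4.03 CPM in the QH-II-066 group, and 2.77, 2.69, 3.67 and 5.17 CPM in untreated tumours. Its highest value came from the shallowest library. Hoxb7, a trunk gene, had 2.51, 2.15, 2.06 and 5.35 CPM in the combined group, 2.10, 4.32, 1.96 and 1.90 CPM in the 5 Gy group, 1.88, 1.94, 1.54 and 1.94 CPM in the QH-II-066 group, and 1.502, 2.11, 1.25 and 2.003 CPM in untreated tumours. A single skin-bearing library stood above the others in both irradiated groups. Hoxb6, its neighbour in the cluster, had 2.94, 2.08, 2.09 and 1.49 CPM in the combined group, 2.10, 3.07, 1.96 and 2.17 CPM in the 5 Gy group, 2.47, 2.90, 1.82 and 1.75 CPM in the QH-II-066 group, and 2.67, 1.65, 2.43 and 1.76 CPM in untreated tumours. Hoxb8, known from haematopoietic progenitors and microglia in mice, had 1.97, 2.39, 2.71 and 5.21 CPM in the combined group, 1.56, 3.48, 2.46 and 2.74 CPM in the 5 Gy group, 2.77, 2.34, 1.45 and 2.996 CPM in the QH-II-066 group, and 2.44, 2.08, 1.73 and 2.74 CPM in untreated tumours. For Hoxb8 as for Hoxb7, the highest value was that of replicate 4 of the combined group. Hoxd4, a neck gene with uncertain counts, had 0.486, 1.76, 1.22 and 0.297 CPM in the combined group, 0.960, 1.25, 0.843 and 1.02 CPM in the 5 Gy group, 0.296, 0.901, 1.49 and 0.610 CPM in the QH-II-066 group, and 1.602, 1.08, 1.73 and 1.16 CPM in untreated tumours, again with overlap between groups.

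The comparisons with untreated tumours ask what radiation, drug or both did to each gene, and all 3 share the same 4 untreated libraries. In 5 Gy tumours, 1 of the 28 tested Hox genes passed the threshold, an adjusted p under 0.05 in edgeR's quasi-likelihood test with Benjamini-Hochberg adjustment over 16101 genes, where 1.26% of all tested genes passed. That gene was Hoxc9, which takes part in patterning the thorax and the spinal motor columns. Hoxc9 had 0.756, 0.392, 0.328 and 0.149 CPM in the combined group, 0.818, 1.06, 0.506 and 0.712 CPM in the 5 Gy group, 0.263, 0.500, 1.01 and 0.610 CPM in the QH-II-066 group, and 0.134, 0.0769, 0.0958 and 0.211 CPM in untreated tumours. Every 5 Gy and every QH-II-066 library lay above the untreated ones. In the combined group only replicate 4, the shallowest library, lay within the untreated range. Its 0.149 CPM was below the 0.446 CPM that 3 counts would give there, so this overlap is uncertain. These levels rest on few counts, 93 in the 5 Gy group and 15 in untreated tumours, summed over 4 libraries each. Hoxc9 rose by 2.54 ± 0.53 (log2 fold change ± SE, n = 4 each) in 5 Gy tumours, with an edgeR adjusted p of 0.0387. Its log2 fold change was 1.71 ± 0.54 in the combined group (edgeR adjusted p = 0.298) and 2.16 ± 0.53 in the QH-II-066 group (edgeR adjusted p = 0.546). The call was lost without replicate 2 or 4 of the 5 Gy group, replicate 3 of the combined group, replicate 2 or 4 of the QH-II-066 group, or replicate 1, 2 or 3 of the untreated group (edgeR adjusted p 0.0514 to 0.171). With Col1a1 as a covariate the log2 fold change was 1.81 (edgeR adjusted p = 0.978), and over all settings run the adjusted p ranged from 0.00132 with DESeq2 to 0.991.

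Hoxc8 and Hoxd8, paralogues of the trunk, had the next smallest p-values in 5 Gy tumours. Hoxc8 had 2.46, 0.235, 0.835 and 3.57 CPM in the combined group, 1.46, 5.79, 0.641 and 2.24 CPM in the 5 Gy group, 0.428, 0.934, 2.59 and 1.25 CPM in the QH-II-066 group, and 0.534, 0.423, 0.160 and 0.351 CPM in untreated tumours. The 5 Gy libraries lay above all untreated ones, with replicate 2 far above the rest, and the other groups overlapped with untreated. The Hoxc8 log2 fold change in 5 Gy tumours was 2.78 ± 0.82 (edgeR adjusted p = 0.0890). Hoxd8 had 3.35, 1.45, 1.70 and 6.10 CPM in the combined group, 2.99, 9.68, 2.63 and 1.97 CPM in the 5 Gy group, 1.84, 2.94, 2.63 and 2.78 CPM in the QH-II-066 group, and 1.502, 0.999, 0.895 and 0.879 CPM in untreated tumours. Both single-treatment groups lay wholly above untreated, and 1 combined library lay inside its range. For Hoxd8 the log2 fold change in 5 Gy tumours was 2.01 ± 0.52 (edgeR adjusted p = 0.0630). Without replicate 3 of the 5 Gy group both genes passed (edgeR adjusted p = 0.0438 for Hoxc8 and 0.0389 for Hoxd8), and Hoxd8 also passed without replicate 4 of the combined group (edgeR adjusted p = 0.0493). Hoxc10, of the lumbar region and hind limb, had 1.27, 0.157, 0.298 and 0.446 CPM in the combined group, 1.07, 1.63, 0.337 and 0.847 CPM in the 5 Gy group, 0.527, 0.834, 0.970 and 1.19 CPM in the QH-II-066 group, and 0.434, 0.461, 0.160 and 0.562 CPM in untreated tumours. The treated groups all overlapped with untreated, although 3 QH-II-066 libraries lay above every untreated one.

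**Figure D2:**
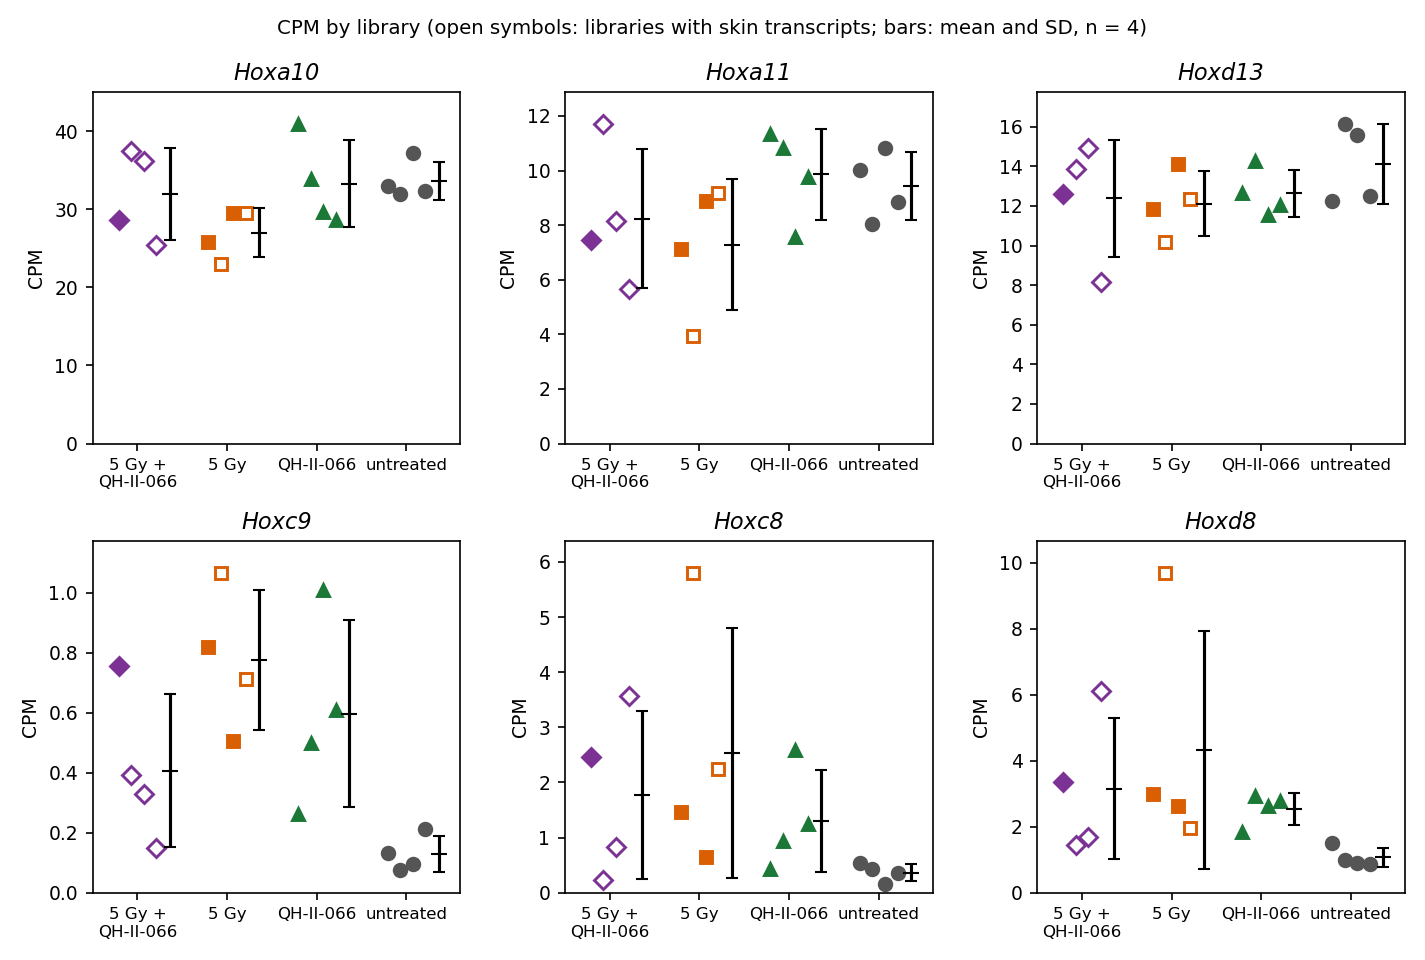
Each panel plots CPM of 1 Hox gene by group, with a point per library, open points for libraries with skin transcripts, and a bar for the mean ± SD (n = 4). Hoxa10 lay below untreated in all 4 libraries of the 5 Gy group, the groups overlapped for Hoxa11 and Hoxd13, and mean Hoxc9, Hoxc8 and Hoxd8 were lowest in untreated tumours.

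At an unadjusted p under 0.05, 8 of the 28 Hox genes differed between 5 Gy and untreated tumours, 7 of them with a higher level, where 15.1% of all tested genes had such a p. These were Hoxc9, Hoxd8, Hoxc8, Hoxc4, Hoxd9, Hoxb2 and Hoxc6, and the lower one was Hoxa10, with a log2 fold change of -0.32 ± 0.15. Over the tested Hox genes, 21 log2 fold changes were above 0 and 7 below, with a median of 0.38, against a median of -0.08 over all tested genes, 38.2% of which were above 0. Other tools gave 3 calls each. DESeq2 called Hoxc9, Hoxc8 and Hoxd8, where it called 7.6% of all genes, and limma-voom with sample weights called Hoxc9, Hoxc8 and Hoxd9, where it called 4.9%.

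Col1a1, the main collagen gene of fibroblasts, was higher in every 5 Gy library than in untreated tumours. The combined and QH-II-066 groups overlapped with untreated. The Col1a1 level was 162 to 471 CPM in the combined group and 456 to 1165 CPM in the 5 Gy group. It was 127 to 306 CPM in the QH-II-066 group and 137 to 179 CPM in untreated tumours. In 5 Gy tumours 12 of the 15 fibroblast and matrix genes rose against untreated and 0 fell in the edgeR test, and their summed level was 2245 to 4821 CPM, against 577 to 949 CPM in untreated tumours. Among other cell types, 3 of 11 macrophage and monocyte genes also rose (median log2 fold change 1.29). So did 2 of 9 pericyte and smooth muscle genes (median 1.18) and 1 of 11 endothelial genes (median 0.59). Genes of adipocytes (0 of 9, median 2.67), Schwann cells (0 of 8, median 0.68) and lymphocytes (0 of 6 tested, median 0.33) did not pass. Nor did those of skin epithelium (0 of 14 tested, median 10.5) or skeletal muscle (0 of 14 tested, median 4.30). The median over the fibroblast and matrix genes was 2.14. With Col1a1 in the fit, the log2 fold change of Hoxd8 in 5 Gy tumours was -0.11, while that of Hoxc9, given above, stayed positive. Col1a1 levels did not overlap between the 5 Gy and untreated groups, so this fit cannot tell group and Col1a1 apart. The part of fibroblast or other host RNA in the Hoxc9, Hoxc8 and Hoxd8 differences was not tested. In tumours as a whole, more cells of a type and more RNA per cell cannot be told apart.

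In the combined group 0 of the 28 Hox genes passed in edgeR, with 0% of all tested genes called, and 6 had an unadjusted p under 0.05, all with higher levels than untreated tumours, where 16.2% of all genes had such a p. These were Hoxc9, Hoxd8, Hoxc8, Hoxa5, Hoxb4 and Hoxb7. The log2 fold change was 2.21 ± 0.82 for Hoxc8, 1.52 ± 0.52 for Hoxd8 and 0.89 ± 0.36 for Hoxa5. In the QH-II-066 group 0 passed in edgeR, with 0% of all genes called, and 4 had an unadjusted p under 0.05, which were Hoxc9, Hoxd8, Hoxc8 and, with a lower level, Hoxa6, where 8.17% of all genes had such a p. DESeq2 called 0 Hox genes in both comparisons. In limma-voom 0 were called in the combined group and 8 in the QH-II-066 group, where it called 28.7% of all genes, a share like that of the Hox genes.

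Between the combined and the 5 Gy group 0 Hox genes passed in edgeR, with 0% of all genes called, and 1, Hoxa5, had an unadjusted p under 0.05, as did 19.5% of all genes. Between the combined and the QH-II-066 group 0 passed, with 0% of all genes called, and 1, Hoxc5, had an unadjusted p under 0.05, as did 3.65% of all genes. DESeq2 and limma-voom called 0 in both. Irradiated against unirradiated tumours, averaged over the drug, gave 0 Hox calls in edgeR, where 1.4% of all genes passed, and 7 genes with an unadjusted p under 0.05, all with higher levels, where 11.4% of all genes had such a p. The smallest p was that of Hoxd8, with a log2 difference of 1.14 ± 0.36, and DESeq2 called that gene alone, where it called 4.96% of all genes, while limma-voom called 0. The interaction of radiation and drug, the drug effect with radiation minus that without, also gave 0 calls in edgeR, with 0% of all genes called. There 5 Hox genes had an unadjusted p under 0.05, all with negative values, as did 6.96% of all genes in either direction. The smallest p was that of Hoxc9 (-2.99 ± 0.72 on the log2 scale, edgeR adjusted p = 0.445). DESeq2 called 0 and limma-voom 3 (Hoxc9, Hoxc10 and Hoxd9), where it called 3.06% of all genes.

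**Figure D3:**
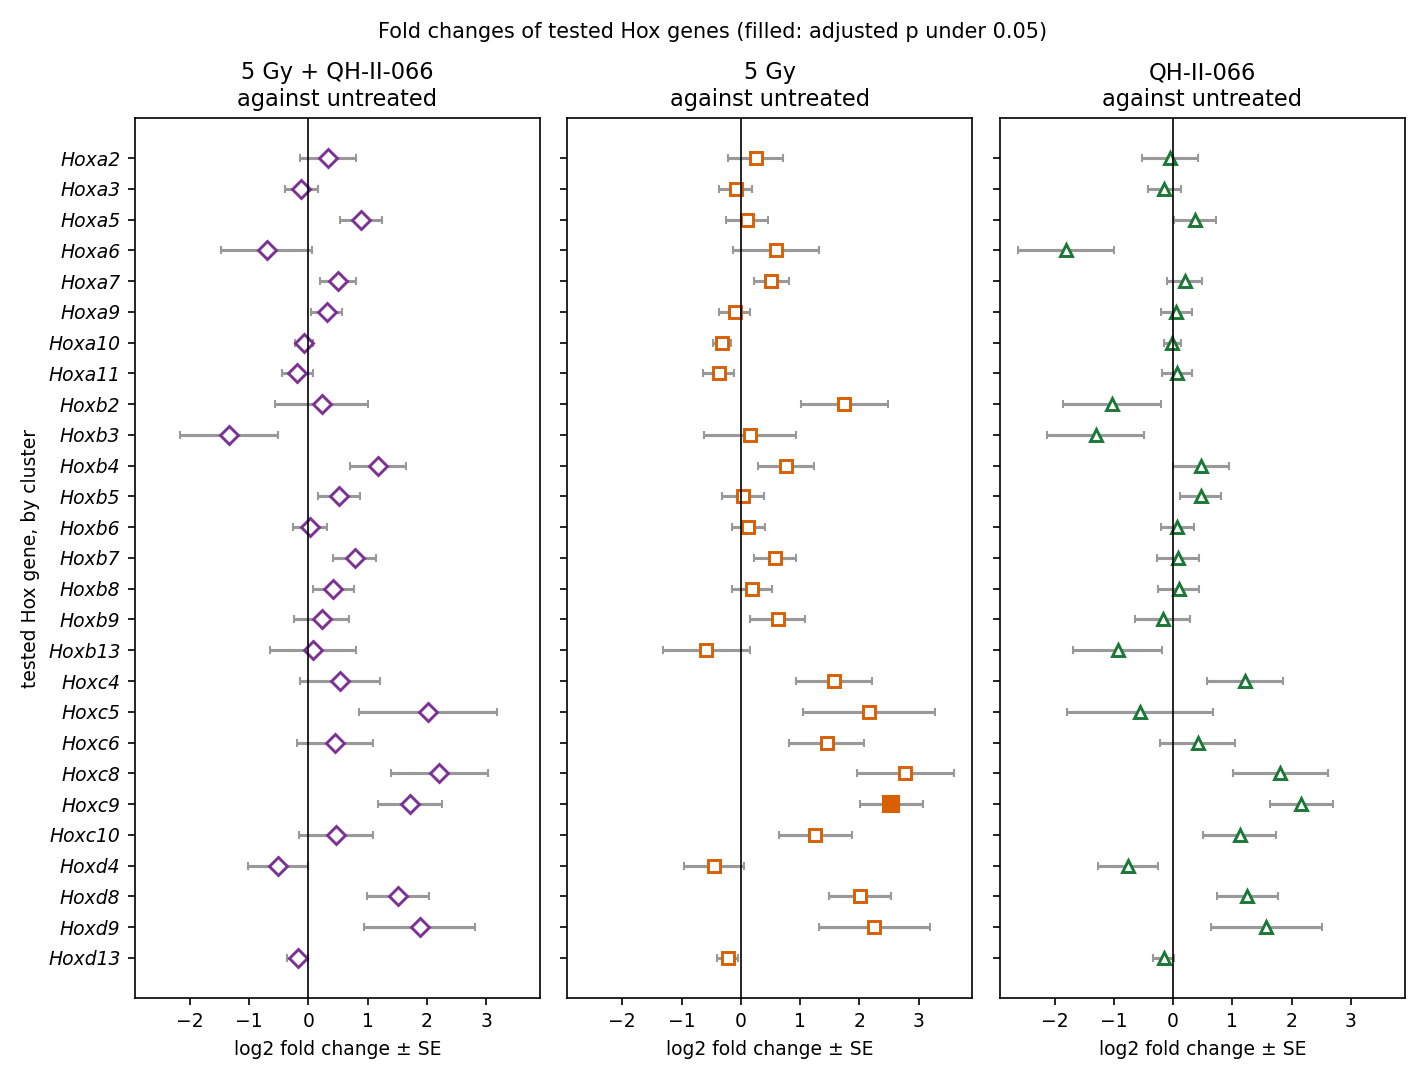
Log2 fold change ± SE against untreated tumours is plotted for tested Hox genes, by cluster, in the combined, 5 Gy and QH-II-066 groups, with a filled symbol for an adjusted p under 0.05. Hoxc9 in the 5 Gy group is the only filled symbol, at 2.54, and Hoxa10 and Hoxd13 lie near 0 in each panel.

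Summed over the 39 genes, Hox expression averaged 104 ± 1.58 CPM in the combined group, 100.1 ± 15.95 CPM in the 5 Gy group, 97.6 ± 8.57 CPM in the QH-II-066 group and 93.8 ± 3.70 CPM in untreated tumours (SD, n = 4 each), with overlap between the 5 Gy, QH-II-066 and untreated groups. All 4 combined libraries lay between 103 and 106 CPM, above the untreated range of 90.1 to 98.8 CPM. The HoxC sum differed more between libraries. It was 5.34 ± 4.42 CPM in the combined group and 9.54 ± 9.58 CPM in the 5 Gy group. In the QH-II-066 group it was 4.01 ± 2.04 CPM, and in untreated tumours 1.72 ± 0.53 CPM. The untested Hoxc13 made up 10.2 of 23.6 CPM in replicate 2 of the 5 Gy group. It made up 4.16 of 11.3 CPM in replicate 4 of the combined group. Each 5 Gy library exceeded every untreated library in HoxC sum, with 2.19 CPM the lowest and 2.14 CPM the highest of the 2 groups, while the combined and QH-II-066 groups overlapped with untreated.

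Whether Hox levels followed the amount of fibroblast, skin or muscle RNA was asked over libraries. With Col1a1, 21 of the 28 tested Hox genes had a Pearson r above 0 over 16 libraries, and the median was 0.18, against -0.09 over all tested genes. In a two-sided permutation test with adjustment over all 16101 genes, 2 Hox genes passed, where 4.8% of all genes did. Hoxd8 rose with Col1a1 (r = 0.734, permutation p = 0.00085, adjusted p = 0.0279, Spearman rho = 0.762 with adjusted permutation p = 0.0324). Without the 2 libraries farthest from the median of Col1a1, r was 0.696. Hoxa10 fell as Col1a1 rose (r = -0.787, permutation p = 0.00047, adjusted p = 0.0192, rho = -0.738 with adjusted permutation p = 0.0528), and r was -0.670 without those 2 libraries. Over the remaining 14 libraries 0 of 28 Hox genes passed the adjusted permutation test, where 0.981% of all genes did, and the unadjusted permutation p was 0.00603 for Hoxd8 and 0.00985 for Hoxa10. Both relations kept their sign within groups, at r = 0.636 for Hoxd8 and -0.717 for Hoxa10 on deviations from group means. There 0 of 28 Hox genes passed by permutation, where 0.584% of all genes did. The signs also held in the 11 libraries without skin transcripts, at r = 0.671 for Hoxd8 and -0.746 for Hoxa10. In these 0 of 28 Hox genes passed, where 0.466% of all genes did. For the HoxC genes r with Col1a1 was positive for all 6 tested members, from 0.496 for Hoxc5 to 0.685 for Hoxc8 (adjusted permutation p = 0.0694). Hoxa11 had r = -0.645 (adjusted permutation p = 0.0834) and Hoxd13 had r = -0.444 (adjusted permutation p = 0.330).

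The fit of group plus Col1a1 in edgeR called 0 Hox genes, where 0.186% of all genes passed, and 4 had an unadjusted p under 0.05, as did 8.83% of all genes. Per doubling of Col1a1 the log2 change was 0.90 ± 0.31 for Hoxd8, 1.05 ± 0.37 for Hoxc10, -0.25 ± 0.08 for Hoxa10 and -1.34 ± 0.54 for Hoxb3. Counts of Hoxc10 and Hoxb3 are uncertain, as are those of Hoxb2 and Hoxc5 below. For the skeletal muscle score, 0 Hox genes passed the permutation test, where 2.55% of all genes did, and 3 had an unadjusted p under 0.05, as did 16.7% of all genes. Its edgeR slope gave 0 Hox calls against 1.33% of all genes, and 2, Hoxb2 and Hoxc5, had an unadjusted p under 0.05, as did 8.78% of all genes. DESeq2 and limma-voom called 0 Hox genes for the slopes on Col1a1 and on muscle.

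The skin score split the libraries into 5 with and 11 without skin transcripts, so no r with this score was taken over all 16. Within the 11, 0 Hox genes passed the permutation test, where 0% of all genes did, and 2, Hoxc5 and Hoxc8, had an unadjusted p under 0.05, as did 3.09% of all genes. The edgeR slope on the skin score with group terms called 0 tested Hox genes, where 3.48% of all genes passed, and 1, Hoxc5, had an unadjusted p under 0.05 (log2 slope 0.32 ± 0.11 per unit of score), as did 10.5% of all genes. DESeq2 called 0, and limma-voom called 3 (Hoxc5, Hoxc6 and Hoxc8), where it called 13.9% of all genes.

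A further measure, taken up after the relations above were known, was the melanocyte pigmentation score, the mean log2 CPM of 11 genes of pigment cells such as Pmel, Tyr and Mlana. Over 16 libraries 9 of the 28 Hox genes passed the permutation test with it, where 11.7% of all genes did. Hoxa10 followed it upward with r = 0.948 (rho = 0.929, adjusted permutation p = 0.00192), and its r ranked 1 from the highest among 16101 tested genes. Without the 2 farthest libraries r was 0.929, and on deviations from group means it was 0.936. Hoxa11 had r = 0.802 (rho = 0.724, adjusted permutation p = 0.00504), and 0.648 without its 2 farthest libraries. Hoxd13 had r = 0.656 (rho = 0.668, adjusted permutation p = 0.0473), and 0.531 without them. Hoxc8, Hoxd8 and Hoxc6 ran the other way, with r = -0.825, -0.796 and -0.753 (adjusted permutation p 0.00405, 0.00643 and 0.0142). Their rho was -0.774, -0.765 and -0.697, and r without the 2 farthest libraries was -0.702, -0.618 and -0.519. Hoxc5, Hoxb7 and Hoxc10 also passed with negative r. By Spearman's rho 5 of the 9 passed. The pigmentation score and Col1a1 were themselves related at r = -0.822, so the 2 sets of values are not independent. With Col1a1 as with pigmentation, Hox genes that passed were found in both directions, and the set is named here by its symbols.

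**Figure D4:**
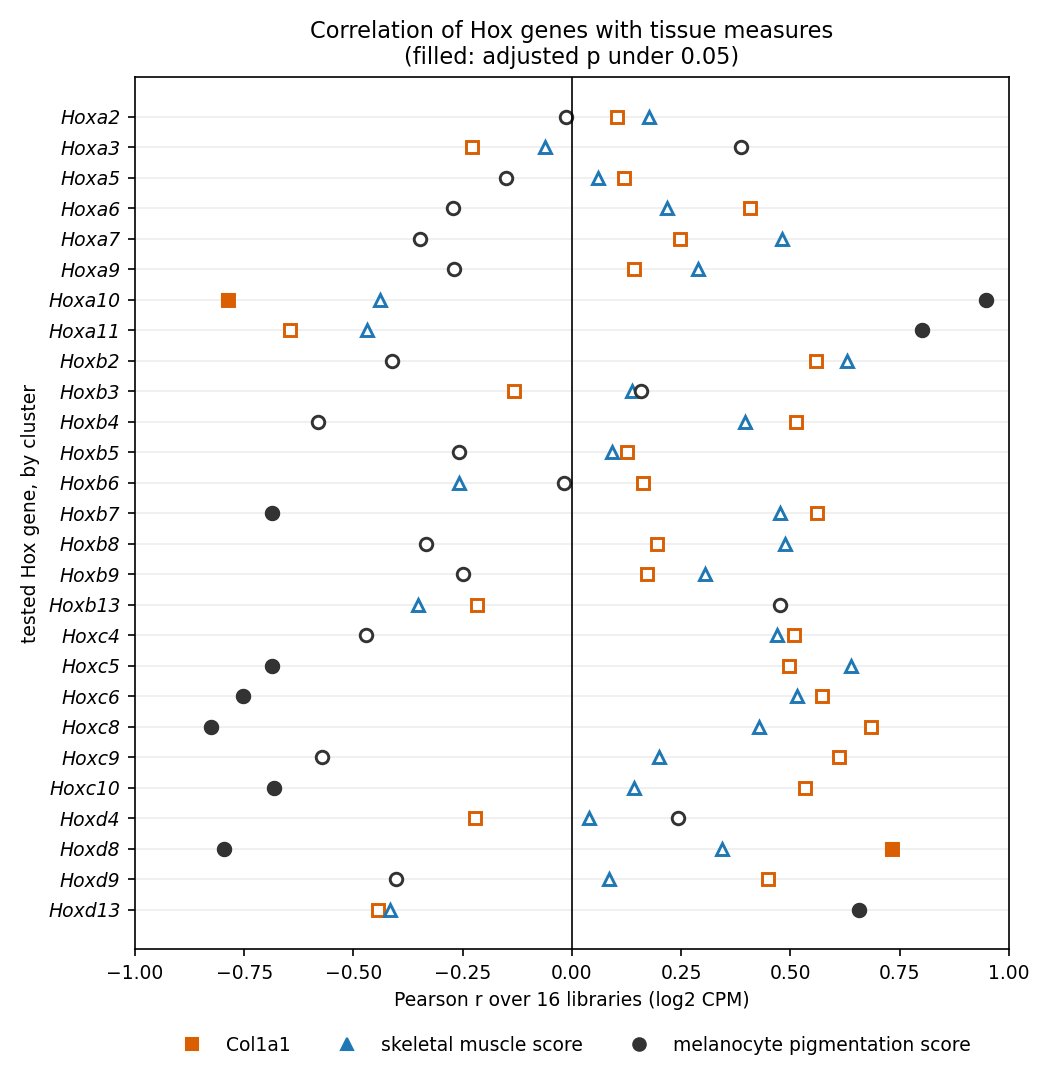
Pearson r over 16 libraries is plotted for tested Hox genes with Col1a1, the skeletal muscle score and the melanocyte pigmentation score, with filled symbols for an adjusted permutation p under 0.05. Hoxa10, Hoxa11 and Hoxd13 lie on the right for pigmentation and on the left for Col1a1, and the 6 HoxC genes and Hoxd8 lie the other way round.

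**Figure D5:**
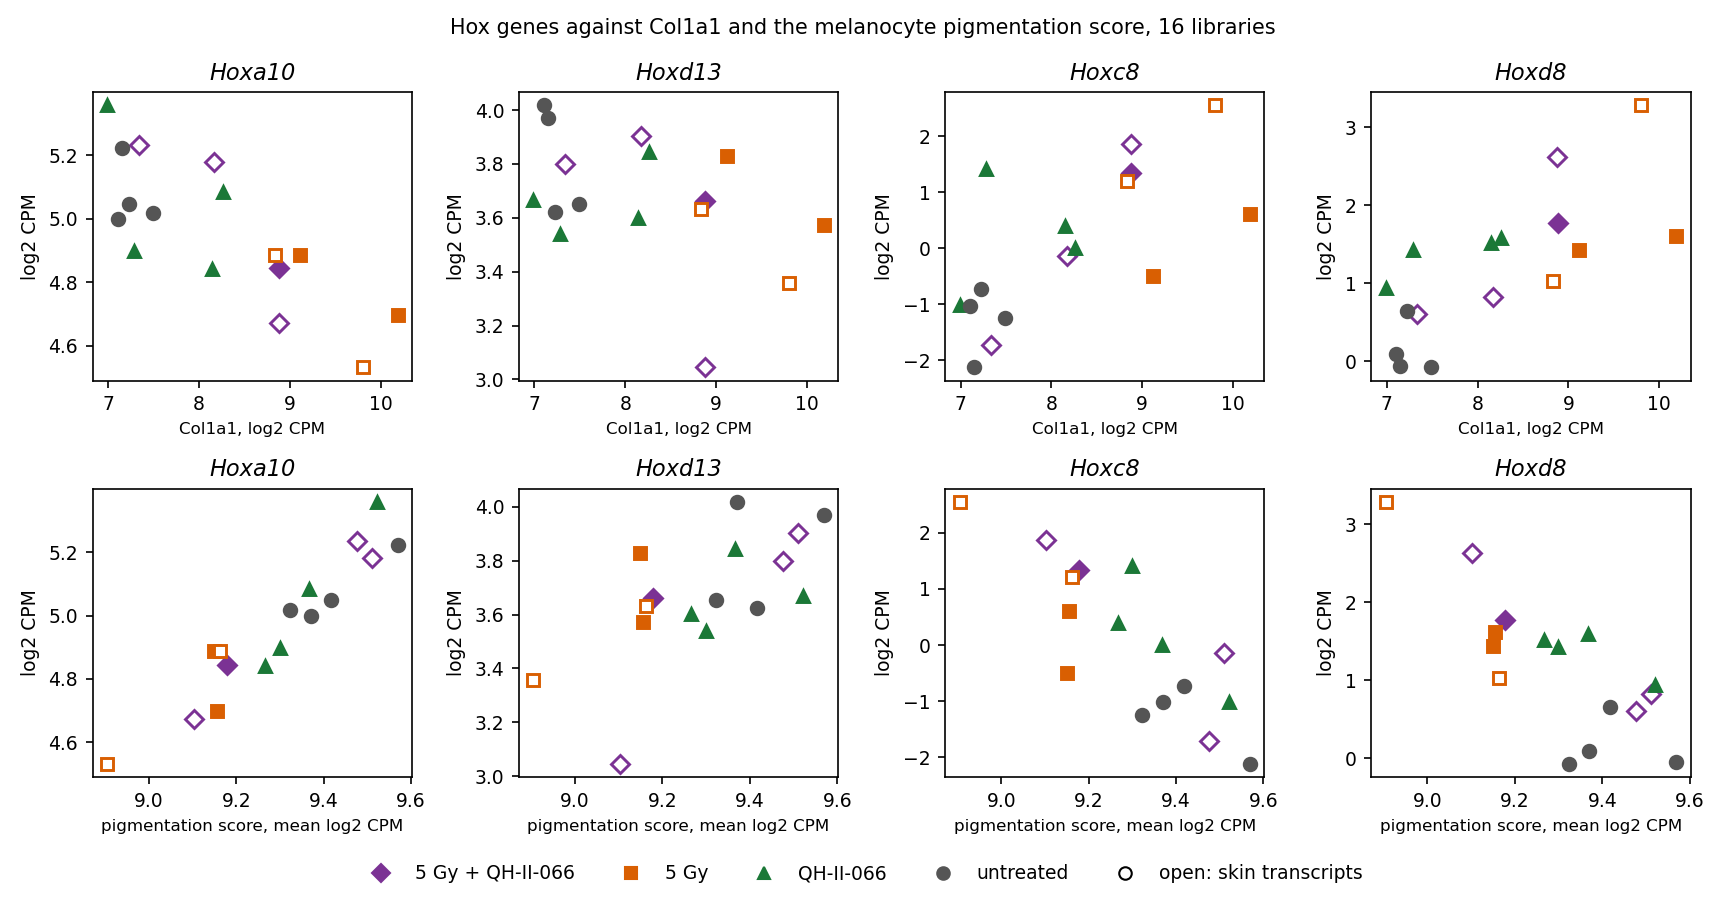
Log2 CPM of Hoxa10, Hoxd13, Hoxc8 and Hoxd8 is plotted against log2 CPM of Col1a1 (top) and the melanocyte pigmentation score (bottom), with a point per library, symbols by group and open symbols for libraries with skin transcripts. Hoxa10 against pigmentation forms the tightest line of the 8 panels, with r = 0.948, and Hoxd8 rises with Col1a1 at r = 0.734.

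Among the members of paralogue group 13, the tail end of each cluster, Hoxc13 was found with skin. This gene is known in mice to control hair keratin genes in the follicle. Its counts were 0, 1, 1 and 28 in the combined group and 0, 326, 0 and 25 in the 5 Gy group, and 0 in all 4 QH-II-066 and all 4 untreated libraries. The levels of the 3 libraries with more than 1 count were 4.16, 10.2 and 0.847 CPM. A count of 0 allows up to 0.0795 to 0.121 CPM in the 8 unirradiated libraries, taken as 3 counts each. All 5 libraries with a Hoxc13 count were the ones with skin transcripts. The 19 listed hair follicle and hair keratin genes found in the table summed to 2.54, 4.35, 4.65 and 798 CPM in the combined group and 2.24, 1746, 2.46 and 17.1 CPM in the 5 Gy group, against 1.09 to 5.41 CPM in the QH-II-066 group and 1.03 to 1.61 CPM in untreated tumours. The 3 libraries highest in Hoxc13 were thus also the 3 highest in hair genes, in the same order. They were the 3 highest in skin and in skeletal muscle genes as well, with 1357 CPM of muscle genes in the combined library and 2871 and 2055 CPM in replicates 2 and 4 of the 5 Gy group. Replicate 4 of the QH-II-066 group had 1340 CPM of muscle genes but 5.73 CPM of skin genes, and its Hoxc13 count was 0. The filter on low counts left Hoxc13 out of the test. With no filter, Hoxc13 passed on the skin score (log2 slope 2.63 per unit, edgeR adjusted p = 0.000121) and on the muscle score (1.89 per unit, edgeR adjusted p = 0.0439). Its counts lie almost wholly in 3 libraries high in both scores. These slopes therefore restate the counts and are no separate evidence. Fits with 1 library left out kept the filter, and most called Hoxc13 on the skin score. The exceptions were those without replicate 2 or 4 of the 5 Gy group or replicate 4 of the combined group. As these are the 3 libraries with more than 1 count, the filter can drop the gene there. A missing call is then not a lost result. The parts of hair, skin and muscle in the Hoxc13 counts were not tested apart.

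The other members of that group behaved differently. Hoxd13 was abundant everywhere, as described above. Hoxb13, a gene of the prostate and the tail, had 0.351, 0.235, 0.686 and 0.297 CPM in the combined group, 0.213, 0.0313, 0.573 and 0.203 CPM in the 5 Gy group, 0.461, 0.234, 0.0404 and 0.0530 CPM in the QH-II-066 group, and 0.200, 0.461, 0.447 and 0.422 CPM in untreated tumours, with overlap between the groups. Hoxa13, of the digits and the gut end, had 1 count in replicate 2 of the combined group, 1 in replicate 4 of the untreated group and 0 in the other 14 libraries.

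Members of the HoxC cluster varied together. The median Pearson r between the 6 tested HoxC genes was 0.65 over 15 pairs, with a lowest value of 0.20, against medians of 0.01 within HoxA, 0.01 within HoxB and 0.02 within HoxD. The closest pair of all was Hoxc8 with its paralogue Hoxd8 (r = 0.873 over 16 libraries). It was followed by Hoxc9 with Hoxd9 (r = 0.859), Hoxb4 with Hoxb7 (r = 0.857) and the neighbours Hoxa10 and Hoxa11 (r = 0.838). These are descriptions over libraries that differ in depth and tissue content, with no test.

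By the summed level of the 39 genes, the 10 tested genes most like it over 16 libraries were Camta1 (r = 0.888), Cnih2, Ddit4l, Ccl27a, Rcan1, Sdc1, Edaradd, 1810019D21Rik, Nudt17 and Hs3st6 (r = 0.805). For the HoxC sum they were Ntn1 (r = 0.944), Cebpa, Bmp2, Il6ra, Lynx1, Pth1r, Rbm47, Kcnk6, Ucp2 and Sox13 (r = 0.919). This sum includes Hoxc13, found with skin transcripts as described above. With the sum of all Hox genes r was 0.589 for the skin keratin Krt5, 0.331 for the muscle actin Acta1, 0.134 for the pigment gene Pmel and 0.130 for Col1a1. With the HoxC sum r was 0.696 for Col1a1, 0.587 for Krt5, 0.453 for Acta1 and -0.485 for Pmel.

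Genes that work with or upstream of Hox genes were followed in edgeR over the 7 comparisons and the 3 slopes. Of all tested genes, 1.26% passed in 5 Gy against untreated, 1.4% in irradiated against unirradiated and 0% in the other comparisons. On the slopes 0.186% passed for Col1a1, 3.48% for the skin score and 1.33% for the muscle score. With such shares, few calls in lists of this size are not particular to these genes. Of the TALE cofactors, which bind DNA beside Hox proteins, 9 of 9 were tested and 0 passed. Their smallest p-values were those of Pknox1 (log2 fold change -0.42 ± 0.13) and Meis2 (-0.36 ± 0.12) in the combined group against untreated. Among Polycomb and Trithorax genes, which hold Hox clusters silent or active, 30 of 30 were tested and 0 passed, and the smallest p was that of Kdm6b in the QH-II-066 group (-0.62 ± 0.18). Of 15 caudal and retinoic acid genes, 12 were tested and 1 passed, Crabp1, a retinoic acid binding protein, which was higher in irradiated than in unirradiated tumours by 3.78 ± 0.73 on the log2 scale (edgeR adjusted p = 0.0400). Of 21 positional genes of limb and body wall, 14 were tested and 1 passed, Lhx2, known from hair follicle stem cells in mice, on the skin score slope (0.95 ± 0.15 per unit, edgeR adjusted p = 0.000859). Of 12 dermal fibroblast transcription factors, 11 were tested and 1 passed, Prrx1, a homeobox gene of limb and skin mesenchyme. Prrx1 rose by 1.84 ± 0.36 on the log2 scale in 5 Gy tumours against untreated (edgeR adjusted p = 0.0328) and by 0.85 ± 0.14 per doubling of Col1a1 (edgeR adjusted p = 0.0251). Of the genes that flank the clusters, 6 were tested and 0 passed. In 5 Gy against untreated tumours the median log2 fold change was 1.80 over the dermal factors, 0.48 over the caudal and retinoic acid genes, -0.15 over the TALE cofactors and -0.17 over the Polycomb and Trithorax genes, beside 0.38 over the Hox genes.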

How the data were processed

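RNA of 16 tumours was prepared by transcriptome capture, per the labels' protocols. The submitters' processing notes name STAR 2.4.1a, featureCounts, edgeR and build mm10. The authors deposited raw counts for each gene, not normalized, and per the file headers featureCounts 1.6.0 counted read pairs over exons with no strand option. Fragments on 2 overlapping genes are then left out.

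Groups came from sample titles. The members, gene lists, tests and settings were chosen with earlier results of these data known. All libraries entered 1 edgeR 4.0.16 model of group means (R 4.3.3, filterByExpr, TMM, robust quasi-likelihood test, two-sided) with Benjamini-Hochberg adjustment over 16101 genes and a threshold of 0.05. SEs are the log2 fold change divided by the root of the F statistic. Slope fits added Col1a1 or a list score (mean log2 CPM, prior count 2) to the group terms, and correlations used 100000 permutations (Python 3.11.15, NumPy 2.4.6). CPM are TMM-scaled. The method was tested on simulated data. Alternatives were RLE scaling, DESeq2 1.42.0, limma 3.58.1 (voom with sample weights), no filter, a filter of 30 counts in place of 10, replicate block, covariates, only the compared groups, and each library left out. Fits without the 5 skin libraries, the HoxC sum and the pigmentation score were added later. Members given per library were those called, the 3 highest per kilobase in each cluster and paralogue group 13. Cofactors and list genes were named if called, or by smallest p. No libraries of a group agreed within counting noise, so each counted once. Some items are counted within the set but not reported or drawn singly here. Limits for a count of 0 cover counting error only, as reads carry no molecular identifiers.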

Additional observations from a re-analysis of the deposited data

Results flagged for a closer look

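Of 76 groups of 4 libraries examined over 15 members and 5 sums, 11 had a library whose gap to its nearest neighbour passed Dixon's critical share of the group's range for 4 values, and chance gives about 1 in 20. Several of these flags share a library, so they are not independent.

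In the 5 Gy group replicate 2, a library with skin and hair transcripts, stood above the others for Hoxd8 (9.68 CPM, next 2.99 CPM), Hoxb7 (4.32 CPM, next 2.10 CPM) and Hoxc13 (10.2 CPM, next 0.847 CPM). In the combined group replicate 4, the shallowest library and one with skin transcripts, stood above the others for Hoxb7 (5.35 CPM, next 2.51 CPM), Hoxc13 (4.16 CPM, next 0.0392 CPM) and the HoxB sum (18.1 CPM, next 12.5 CPM). The part of skin content or depth in these values was not tested.

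Replicate 3 of the QH-II-066 group lay below the others for Hoxb7 (1.54 CPM, next 1.88 CPM) and the HoxB sum (8.48 CPM, next 11.1 CPM). Replicate 1 of the untreated group was low for Hoxb13 (0.200 CPM, next 0.422 CPM). Hoxa13 was flagged for single counts, 0.0392 CPM in replicate 2 of the combined group and 0.0351 CPM in replicate 4 of the untreated group.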

How the results depend on the processing

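Of 28 tested Hox genes, 1 was called in 5 Gy against untreated tumours. The count was 3 with DESeq2, which called 7.6% of all genes, and 3 with limma-voom, which called 4.9%. It was 0 with the stricter filter, under which Hoxc9 was not tested. It was also 0 with Col1a1, skin or muscle as a covariate, with all 3 covariates, and without the skin libraries. With 1 library left out it ranged from 0 to 3. Shares of all genes called in these edgeR settings are not given here, so the moves are not read as particular to Hox genes. The replicate block gave 0 calls (Hoxc9 edgeR adjusted p = 0.0629). Deviations from group means of same-numbered libraries correlated at -0.43 to 0.48, over 0.1 in 12 of 24 pairs. Their median was 0.10, against -0.04 for pairs with other numbers. Whether equal numbers mark a shared batch or pairing is not settled by these values, which also carry tissue content. In the other 6 comparisons the block gave 0 calls, as without it.

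With 3 covariates the log2 fold change in 5 Gy tumours reversed for Hoxa10 (0.43), Hoxc4 (-0.54), Hoxc6 (-1.51), Hoxc8 (-2.46) and Hoxd8 (-1.53), and with Col1a1 alone for Hoxa10 (0.24) and Hoxd8 (-0.11). The cause was not tested.

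Counts of 0 moved elsewhere as follows. limma-voom gave 8 for QH-II-066 against untreated, 3 for the interaction and 3 for the skin slope, and DESeq2 gave 1 for irradiated against unirradiated. Of all genes, 28.7%, 3.06%, 13.9% and 4.96% were called there, in the same order. For the slope settings that follow, shares of all genes are not given here, so their counts are not read as particular to Hox genes. The Col1a1 slope gave 2 (Hoxd8 and Hoxa10) with no group terms and 1 (Hoxc10) with the fibroblast score. The skin slope gave 1 with no filter (Hoxc13), 1 with no group terms (Hoxc5) and 0 to 1 with a library left out. The muscle slope gave 1 with no filter (Hoxc13) and 0 to 1 with a library left out. For both slopes the calls with a library left out were of Hoxc13, which the filter kept out of the fit to all 16 libraries. Correlations with Col1a1 passed for 2 genes, and for 0 on deviations from group means, 0 without the 2 farthest libraries and 0 without the skin libraries. The shares of all genes passing were 0.584%, 0.981% and 0.466% in the same order. Counts of the other settings stayed within 1.5 times.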

Other observations

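Noncoding genes of the clusters also had counts. Mir196a-1, a microRNA gene of the HoxB cluster, had 13 counts in replicate 2 and 13 in replicate 4 of the 5 Gy group, 2 in replicate 4 of the combined group, and 0 in the other 13 libraries. Hoxa11os, antisense to Hoxa11, had 62 to 274 counts per library.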
